A study of Homo sapiens with 4 samples.

Results

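The genes described here encode 54 factors that process 18S ribosomal RNA (rRNA) and build the small, 40S, subunit of the ribosome. They were chosen by name, as known components of the small subunit processome and of the later pre-40S particle, and the choice was made with earlier results of these data known. All 54 were found, each in 1 row, among the 51103 genes of the deposited tables. The tables come from polyadenylated RNA of cells labelled AGS, an established human gastric cancer cell line. A total of 2 libraries are labelled FGF2 (recombinant human fibroblast growth factor 2 at 20 ng/mL, harvested after 24 h) and 2 are labelled NC, with no expansion of that name. All 4 libraries carry 1 treatment text, which describes added FGF2, and the sources used here do not say how the NC cells were treated. The series title links FGF2 to ribosome biogenesis, so a direction seen in these genes is not independent evidence.

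Total counts were 13790335 and 27598608 in FGF2 libraries 1 and 2, and 14073340 and 27325697 in NC libraries 1 and 2. In each group library 1 exceeded library 2 at only 2 genes (about 1192 and 1214 would be expected of separate libraries), so library 2 appears to contain library 1. Each group was taken as 1 sample for this reason, and every comparison below is of n = 1 against n = 1, with no test. Levels and fold changes are those of the deeper library 2. As a check inside each group, fold changes were also taken from 2 read sets that share no counts, library 1 and the remainder of library 2. These read sets differed by more than counting error (chi-square per gene of 2.70 in FGF2 and 2.62 in NC, where counting error alone gives about 1), so they are not a random split of 1 library. Nothing in the labels says whether they came from separate cultures. Counting intervals (95%, exact binomial) cover counting error only, and so leave out this spread and any difference between cultures. Genes that FGF signalling is known to induce were higher in the libraries labelled FGF2, as in the feedback phosphatase gene DUSP6 with 320 and 623 counts against 26 and 57 (40.5% of its exon bases overlap other genes), and SPRY4 with 516 and 1115 against 54 and 116. Of 7 epithelial markers, KRT8, KRT18, KRT19 and KRT7 were above 25 FPKM in every library (fragments scaled by exon length and library total). CDH1, in contrast, was below 0.2 FPKM, and EPCAM was at 0.576 and 0.518 FPKM with FGF2 against 0.846 and 1.19 FPKM. CLDN4 was at 0.386 and 0.462 FPKM with FGF2 against 0.574 and 0.654 FPKM. Of 9 fibroblast markers, COL1A1, THY1 and PDGFRB stood above 5 FPKM in every library and the other 6 under 1 FPKM. Their summed level was 84.3 and 83.8 FPKM with FGF2 against 141.4 and 144.6 FPKM, and their part in the results was not tested. The 4 endothelial and 6 blood markers summed to between 0.309 and 1.07 FPKM in each library. Whether the cells are AGS was not assessed.

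Ribosomes are built on a long precursor rRNA made by RNA polymerase I in the nucleolus. Its leading end is bound, while it is still being made, by the U3 small nucleolar ribonucleoprotein (snoRNP) and by protein modules called UTP-A, UTP-B and UTP-C, which together form the small subunit processome. This particle folds and cleaves the precursor and modifies the future 18S rRNA. After it comes apart, late factors take the pre-40S particle to the cytoplasm, where the last cut frees mature 18S rRNA. Growing cells are known to raise the genes of this pathway, and the transcription factor MYC, which binds the E-box CACGTG, is a known activator of many of them.

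Most of the 54 factors had moderately higher transcript levels in the FGF2 sample, and none was lower by the rule used. A gene was called higher when the lower of its FGF2 read sets lay 1.2-fold or more above the higher of its NC read sets, in counts scaled for depth. This took 40 of the 54 factors (74.1%), with 0 lower and 14 neither. The same rule called 12.2% of 11000 genes tested higher and 13.7% lower, where the genes tested are those averaging 50 counts or more over the 4 read sets. Over all 14043 genes kept by the filter on low counts the shares were 11.7% and 16.0%. At a bound of 1.5-fold, 8 factors (WDR43, WDR3, RRP9, EMG1, ESF1, KRR1, AATF and PNO1) were higher against 3.06% of the genes tested, and 0 were lower against 5.36%. In RNA from whole cultures, a change in the mix of cells and a change in RNA per cell cannot be told apart. The median log2 fold change of the factors was 0.48 (1.39-fold), against 0.02 over all genes tested. The values ranged from 0.11 to 0.75, and all 54 were above 0, as were 5821 of the 11000 genes tested. All 54 passed the filter on low counts and 53 were among the genes tested, with DDX47 as the exception. The read sets of the groups did not overlap, with FGF2 above NC, for 50 factors, and 36.6% of all genes tested met that weaker condition. Library 1 alone gave a median of 0.45, and the remainder of library 2 gave 0.48. Between these read sets a factor's log2 fold change differed by a median of 0.11 and by at most 0.36, and the larger value came from library 1 for 27 factors.

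**Figure D1:**
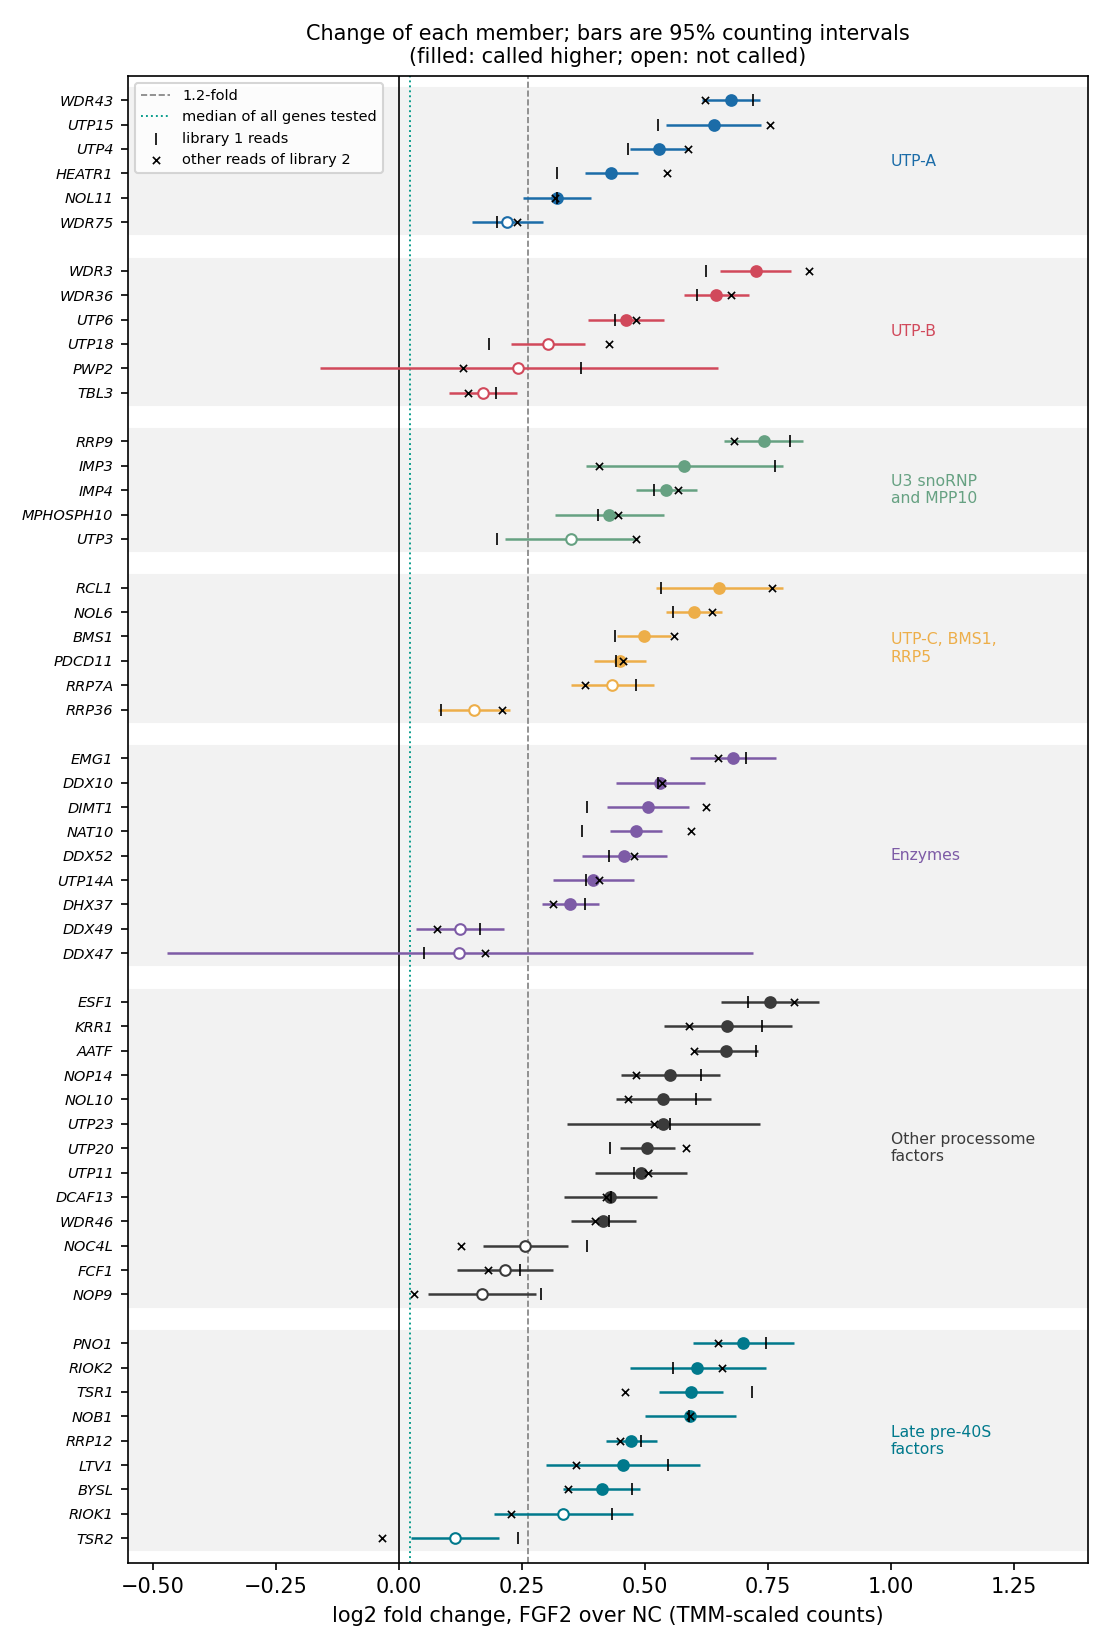
Log2 fold change of FGF2 over NC for each of the 54 factors, grouped by role. Points are the deeper libraries (filled where called higher), bars are 95% counting intervals, and black marks are the 2 read sets; every point lies right of 0, between 0.11 and 0.75, and 40 are filled.

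Levels differed far more between factors than between groups. In the NC sample the factors ranged from 0.356 to 48.2 FPKM, with a median of 17.5 FPKM. In the FGF2 sample they ranged from 0.367 to 74.6 FPKM, with a median of 23.2 FPKM. The lowest in both samples were DDX47 and PWP2, which share coding or transcript sequence with other genes, so the low end is uncertain. The summed level of the factors was 1362 and 1353 FPKM in the FGF2 libraries and 1048 and 1042 FPKM in the NC libraries. The order of the factors by level was almost the same in both samples (Spearman rho 0.98 over 54 genes, which share libraries and gene lengths). FPKM values are scaled to total counts only, and their log2 ratios lie 0.08 below the fold changes given here, which used TMM scaling (trimmed mean of M values).

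**Figure D2:**
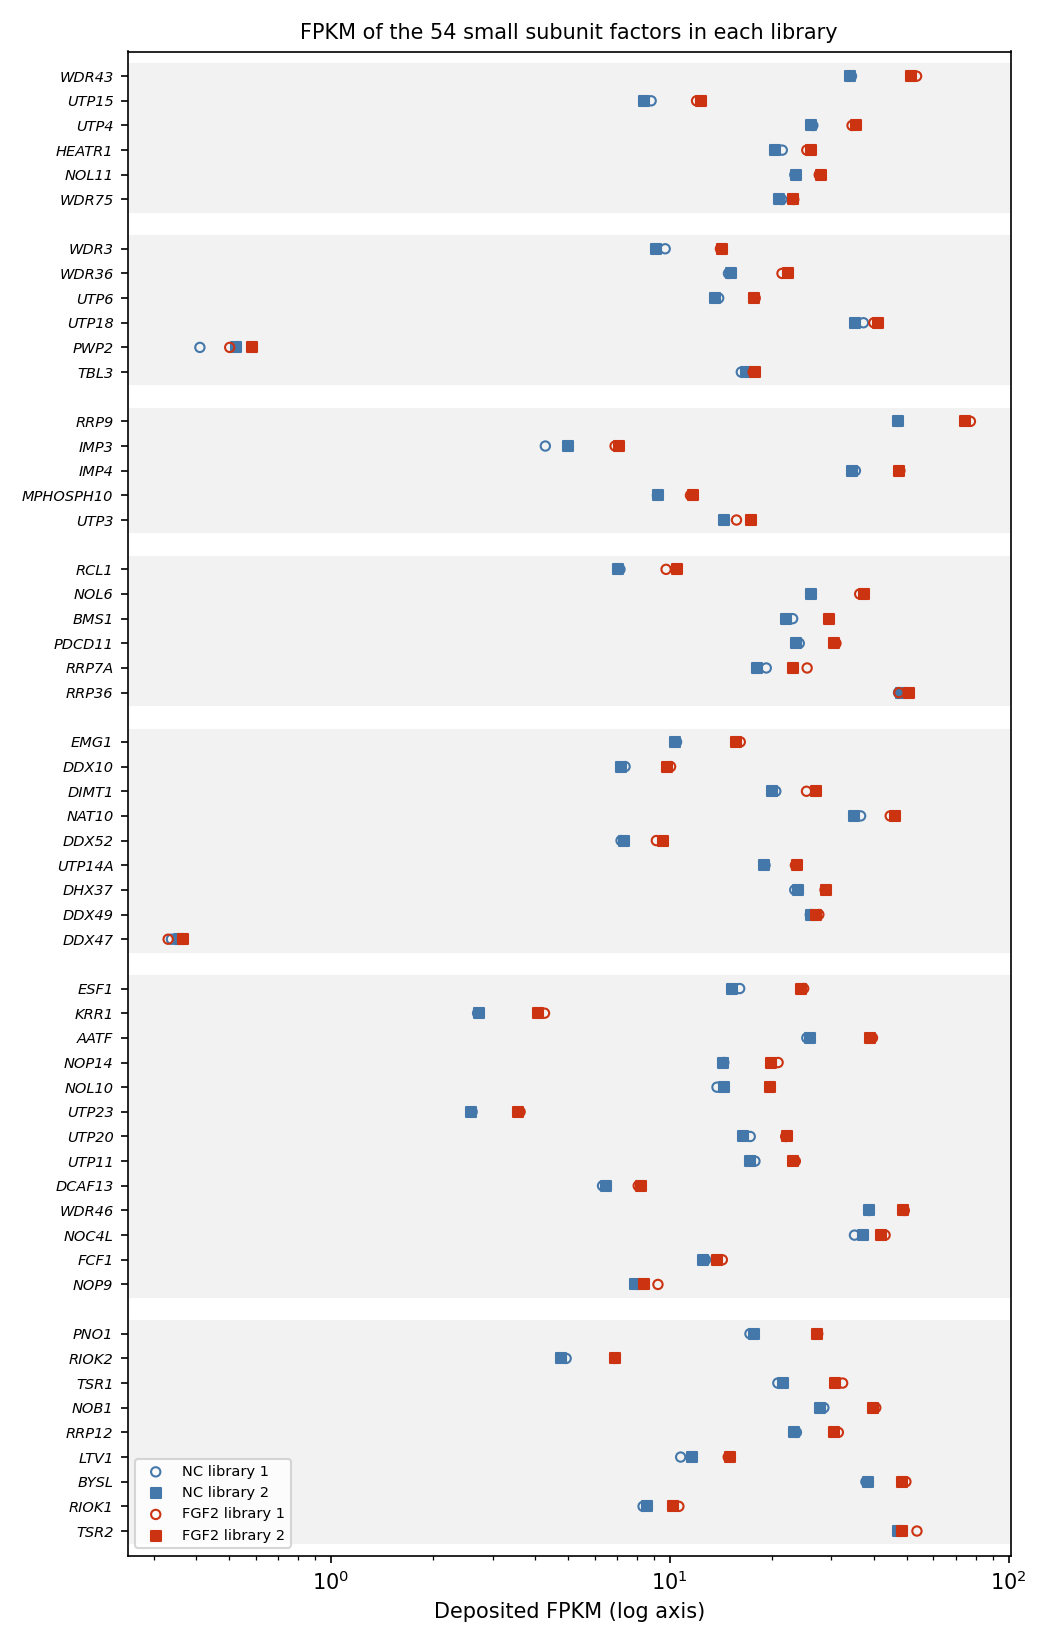
Deposited FPKM (log axis) of each factor in the 4 libraries, in the order of the plot of fold changes. The red FGF2 symbols lie to the right of the blue NC symbols for most factors, and PWP2 and DDX47 stand apart at under 1 FPKM.

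The promoters of many factors hold an E-box near the transcript start. RefSeq promoters (GRCh38.p14, 250 bases before to 50 bases after the start, the first listed for each gene) were matched by symbol for 47 of the 54. MPHOSPH10, DDX52, DDX49, NOL10, UTP23, DCAF13 and RRP12 had no entry. The palindrome CACGTG was found in 20 of the 47 (42.6%), in 10.4% of 8629 genes tested that had a promoter, and in 7.43% of all 27305 genes of the table. It lay within 50 bases of the start in 18 of the 47 (38.3%), against 4.28% of the genes tested, a window chosen after the positions were seen. Windows around the match, at most 30 bases with the E-box in capitals, are shown for the factors with an E-box and the highest fold changes (ESF1, RRP9, PNO1, WDR43, AATF, RCL1) and for the 2 with the lowest (TSR2, PWP2), all written in the direction of the gene:
ESF1 (chr20:13784890-13784919, minus strand): gggtgtgagcccCACGTGaggcttggtagg
RRP9 (chr3:51941892-51941921, minus strand): gggttcagctgcCACGTGagttctgcggcc
PNO1 (chr2:68157885-68157914, plus strand): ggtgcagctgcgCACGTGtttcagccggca
WDR43 (chr2:28894658-28894687, plus strand): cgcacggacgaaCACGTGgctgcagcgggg
AATF (chr17:36948785-36948814, plus strand): gacagaagcggtCACGTGccttggcgcgct
RCL1 (chr9:4792936-4792965, plus strand): cctgttccaaacCACGTGgacgcgtctggg
PWP2 (chr21:44107388-44107417, plus strand): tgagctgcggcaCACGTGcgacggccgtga
TSR2 (chrX:54440389-54440418, plus strand): ccgccgggacgtCACGTGgactggggccgg
In this set the motif began between -5 and 13 for every factor but AATF, where it began at -157 (the first transcribed base is 1). Of the 20 factors with an E-box 17 were called higher, with a median log2 fold change of 0.52. Of the 27 without it 17 were called higher, with a median of 0.46. Such a match is a run of letters, and binding was not measured.

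**Figure D3:**
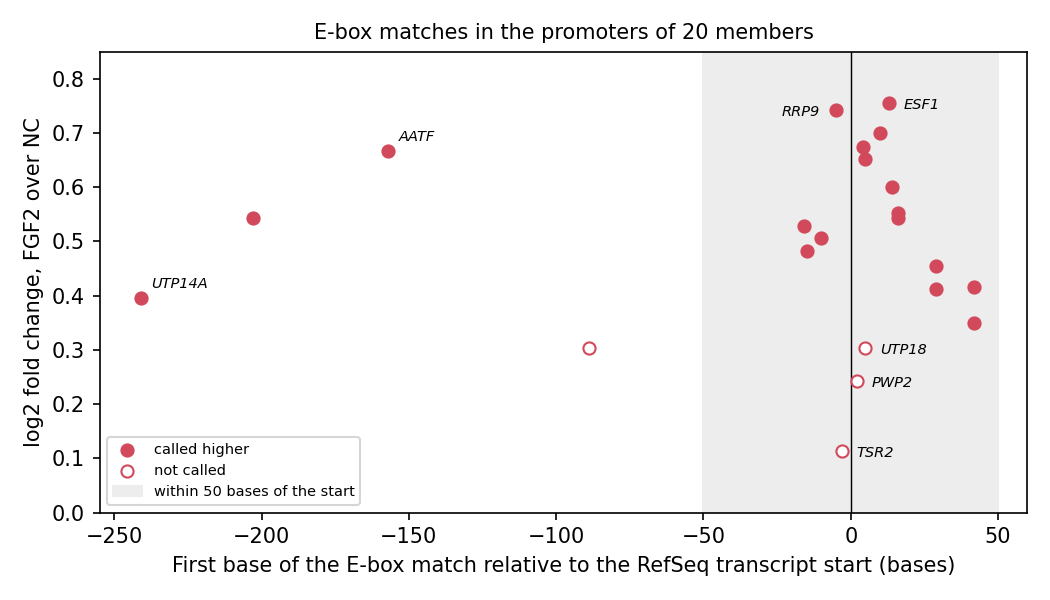
Position of each E-box match (22 matches in 20 promoters) relative to the RefSeq transcript start, in bases, against the log2 fold change of the gene. Most matches lie in the grey band within 50 bases of the start, and the open circles in it are UTP18, PWP2 and TSR2, which were not called higher.

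The other motifs searched differed less in share from the genes tested. The ETS motif CCGGAAGT was in 9 of 47 promoters (19.1%) against 9.9% of the genes tested, and the NRF1 motif in 10 (21.3%) against 12.9%. CCAAT was in 19 (40.4%) against 37.0%. The AP-1 motif TGANTCA was in 0 of 47, against 4.01%. Both strands were searched, and none of these motifs holds the E-box letters.

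UTP-A is the module that meets the leading end of the precursor before the others and is also tied to its transcription. Of its 6 genes 5 were called higher, with a median log2 fold change of 0.48. WDR43 (ENSG00000163811, chromosome 2, 28894643 to 28948222, GRCh38), a WD40-repeat subunit, stood at 53.5 and 51.5 FPKM in the FGF2 libraries and 34.4 and 34.1 FPKM in the NC libraries. Its read sets were separate by 1.51-fold, with a log2 fold change of 0.67 (0.62 to 0.73). UTP15 followed at 0.64, UTP4, which encodes cirhin, at 0.53, HEATR1, the large helical-repeat subunit, at 0.43, and NOL11 at 0.32. WDR75 was lowest, at 23.2 and 23.1 FPKM against 21.4 and 21.0 FPKM. Its log2 fold change was 0.22 (0.15 to 0.29). Its groups did not overlap, but their nearest read sets were 1.13-fold apart, short of the rule.

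UTP-B is a stable complex of WD40-repeat and helical proteins that binds next to U3. It split evenly, with 3 of 6 called higher and a median of 0.38. WDR3 stood at 14.1 and 14.3 FPKM against 9.70 and 9.12 FPKM (0.73, 0.65 to 0.80), the highest of the module. WDR36 was at 0.65 and UTP6 at 0.46, both higher by the rule. UTP18 stood at 0.30, which library 1 put at 0.18 and the remainder of library 2 at 0.43, and was not called. TBL3 was the lowest, at 17.6 and 17.9 FPKM against 16.3 and 16.8 FPKM (0.17, 0.10 to 0.24). PWP2, the sixth subunit, had 48 and 112 counts against 40 and 99, and its overlapping read sets and interval (-0.16 to 0.65) gave no direction at this depth. Of the 50-base words in its annotated transcripts 88.2% also occur in FP565260.1, another gene of the annotation, which itself had 17 and 23 counts against 6 and 21. The level of PWP2, at 0.586 FPKM in the FGF2 sample, is thus uncertain.

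The U3 snoRNP carries the guide RNA that pairs with the precursor, and the MPP10 complex stabilises that pairing. In this group 4 of 5 genes were called higher (median 0.54). RRP9 (ENSG00000114767, chromosome 3, 51933430 to 51941941), the WD40 protein found only on U3 among the box C/D snoRNPs, had the highest FGF2 level of all 54 factors. It stood at 77.2 and 74.6 FPKM against 47.1 and 47.1 FPKM, and its read sets were separate by 1.60-fold (0.74, 0.66 to 0.82). IMP4 was at 0.54, and MPHOSPH10, which encodes MPP10 itself, at 0.43. IMP3 stood at 0.58 (0.38 to 0.78), with 244 and 500 counts against 155 and 350. Library 1 gave 0.76 and the remainder of library 2 gave 0.41, the widest such gap of the 54 factors. In addition, 74.1% of the coding bases of IMP3 overlap exons of other genes. UTP3, a partner of MPP10, was the lowest at 15.7 and 17.4 FPKM against 14.5 and 14.4 FPKM (0.35, 0.22 to 0.49), and was not called.

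UTP-C, the GTPase BMS1 with its partner RCL1, and the RRP5 homologue PDCD11 join as the particle matures. Of these 6 genes 4 were called higher (median 0.47). RCL1 had the highest change at 9.75 and 10.5 FPKM against 7.13 and 7.06 FPKM (0.65, 0.52 to 0.78), and its partner BMS1 was at 0.50 (0.44 to 0.55). NOL6, the large UTP-C subunit, was at 0.60 and PDCD11, which acts in both subunits, at 0.45. RRP7A stood at 0.43 and missed the rule because the nearest read sets of the groups were 1.13-fold apart. RRP36 was the lowest, at 47.5 and 50.7 FPKM against 47.3 and 48.2 FPKM (0.15, 0.08 to 0.23).

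Enzymes of the pathway unwind, methylate or acetylate the RNA. Of 9 genes, 8 for enzymes and 1 for a helicase activator, 7 were called higher (median 0.46). EMG1, which methylates a pseudouridine of 18S rRNA, stood at 16.2 and 15.7 FPKM against 10.5 and 10.4 FPKM (0.68, 0.59 to 0.77), and 53.1% of its exon bases, none of them coding, overlap other genes. The other 18S modifiers were DIMT1, an adenine dimethyltransferase, at 0.51 and NAT10, a cytidine acetyltransferase, at 0.48. Among the helicases DDX10 was at 0.53, DDX52 at 0.46 and DHX37 at 0.35, with UTP14A, the activator of DHX37, at 0.40. DDX49 stood at 27.5 and 27.0 FPKM against 25.99 and 26.2 FPKM (0.12, 0.04 to 0.21) and was not called. DDX47 was the lowest in level and change of the enzymes, with 23 and 51 counts against 24 and 49 (0.12, -0.47 to 0.72). No difference was detectable at that depth, and 100% of its coding bases lie within exons annotated to another gene, chiefly APOLD1, on the same strand.

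A further 13 genes encode processome proteins outside these modules, and 10 were called higher (median 0.51). ESF1 (ENSG00000089048, chromosome 20, 13714322 to 13784886) had the highest fold change of all 54 factors, at 24.8 and 24.4 FPKM against 16.1 and 15.3 FPKM (0.75, 0.66 to 0.85). AATF and NOL10, which act in a complex with NGDN, were at 0.67 and 0.54, while NGDN, which is not among the 54, stood at 0.13 (-0.02 to 0.27) and was not called. KRR1, an RNA-binding protein, was at 0.67, NOP14 at 0.55 and the PIN-domain protein UTP23 at 0.54 (0.34 to 0.73). The large scaffold UTP20 was at 0.51 and UTP11 at 0.49. The WD40 proteins DCAF13 and WDR46 were at 0.43 and 0.42. The members not called were NOC4L, a partner of NOP14, at 0.26 (0.17 to 0.34), FCF1, the nuclease of the particle, at 0.22 (0.12 to 0.31), and NOP9. NOP9 was the lowest, at 9.23 and 8.38 FPKM against 7.997 and 7.89 FPKM (0.17, 0.06 to 0.28). Its read sets overlapped between groups, and 36.9% of its exon bases overlap other genes.

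Late factors accompany the pre-40S particle to its last cut. Of 9 genes 7 were called higher (median 0.47). PNO1 (ENSG00000115946, chromosome 2, 68157844 to 68176238), which holds the end of the 18S precursor, stood at 27.3 and 27.2 FPKM against 17.2 and 17.7 FPKM (0.70, 0.60 to 0.80). NOB1, the nuclease that makes the last cut and binds PNO1, was at 0.59. TSR1, a GTPase-like protein, was also at 0.59, but library 1 gave 0.72 and the remainder of library 2 gave 0.46. The atypical kinase RIOK2 was at 0.61 (0.47 to 0.75), whereas its relative RIOK1 stood at 0.33 (0.19 to 0.48) and was not called. The difference between the kinases was not tested. The export factor RRP12 was at 0.47, LTV1 at 0.46 (0.30 to 0.61) and BYSL at 0.41. TSR2, the chaperone of ribosomal protein RPS26, had the lowest change of all 54 factors, at 53.7 and 48.4 FPKM against 48.0 and 47.3 FPKM (0.11, 0.02 to 0.20). It was also the only factor with a value below 0 in the remainder of library 2 (-0.03, against 0.24 in library 1).

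The role groups thus had medians between 0.38 and 0.54. The spread was wider within groups than between their medians, as in UTP-B from 0.17 to 0.73. Over all 54 factors the standard deviation was 0.17. The counting interval held the common median of 0.48 for 27 factors, lay above it for 15 and below it for 12. These intervals leave out the spread between read sets (a median of 0.11 in log2 fold change). The counts of 15 and 12 thus do not say how many factors differ from the median. The 13 WD40-repeat proteins had a median of 0.53 with 9 called, and the other 41 factors a median of 0.47 with 31 called. Across the 54 factors the fold change had a Spearman rho of -0.14 with the NC level and 0.14 with exon length. Across all genes tested these values were 0.14 and -0.05. The NC level is also the denominator of the fold change, so those 2 quantities are not independent. Values from the 2 read sets had a rho of 0.69 across the factors, against 0.75 across all genes tested. These correlations are over genes of the same libraries, which are not independent.

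Because the library kit does not mark strand, a read in an overlap could come from either gene. Of the 54 factors, 17 share at least 10% of their 50-base transcript words with another gene, through overlap or through copies such as the BMS1 pseudogenes. The 37 with less sharing had 29 called higher and 0 lower, with a median of 0.47. In the 17 with more, 11 were called higher and 0 lower, with a median of 0.50.

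Genes that work beside the 54 factors differed less. Of 26 other genes of 40S assembly, 9 were called higher, 0 lower and 17 neither (34.6% against the 12.2% of all genes), with a median of 0.29. NOP56, a core box C/D snoRNP protein, was highest at 0.53 (0.48 to 0.57), followed by UTP25 at 0.52 (0.42 to 0.63) and AK6 at 0.48 (0.31 to 0.66). C1orf131, a processome component, was lowest at -0.46 (-0.67 to -0.26), where library 1 gave -0.22 and the remainder of library 2 gave -0.76, and was not called lower. UTP14C, a retrogene of UTP14A, stood at -0.19 (-0.56 to 0.18), with 57 and 113 counts against 62 and 135. Of its coding bases 100% overlap exons of ALG11 on the same strand. TRMT112, a methyltransferase partner, was at -0.03 (-0.12 to 0.06). Of the 33 ribosomal protein genes of the 40S subunit itself, 2 were called higher and 0 lower (6.06%), and 0 were called with scaling to total counts. All 33 values were nonetheless above 0, as were 5821 of the 11000 genes tested. The 33 had a median of 0.25, but it was 0.31 in library 1 and 0.16 in the remainder of library 2. With scaling to total counts 32 of the 33 were above 0, against 4606 of the 11000 genes tested, and the median of the 33 was 0.17. RPS10, the lowest at 0.04 (-0.35 to 0.43), gave no direction, with -0.51 in library 1 and 0.71 in the remainder of library 2. RPS26, the client of TSR2, was at 0.34 (0.30 to 0.39) and not called. Reads of ribosomal protein genes can be shared with processed pseudogenes. An E-box was found in 5 of 21 promoters of the other assembly genes and in 1 of 26 of the ribosomal protein genes.

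**Figure D4:**
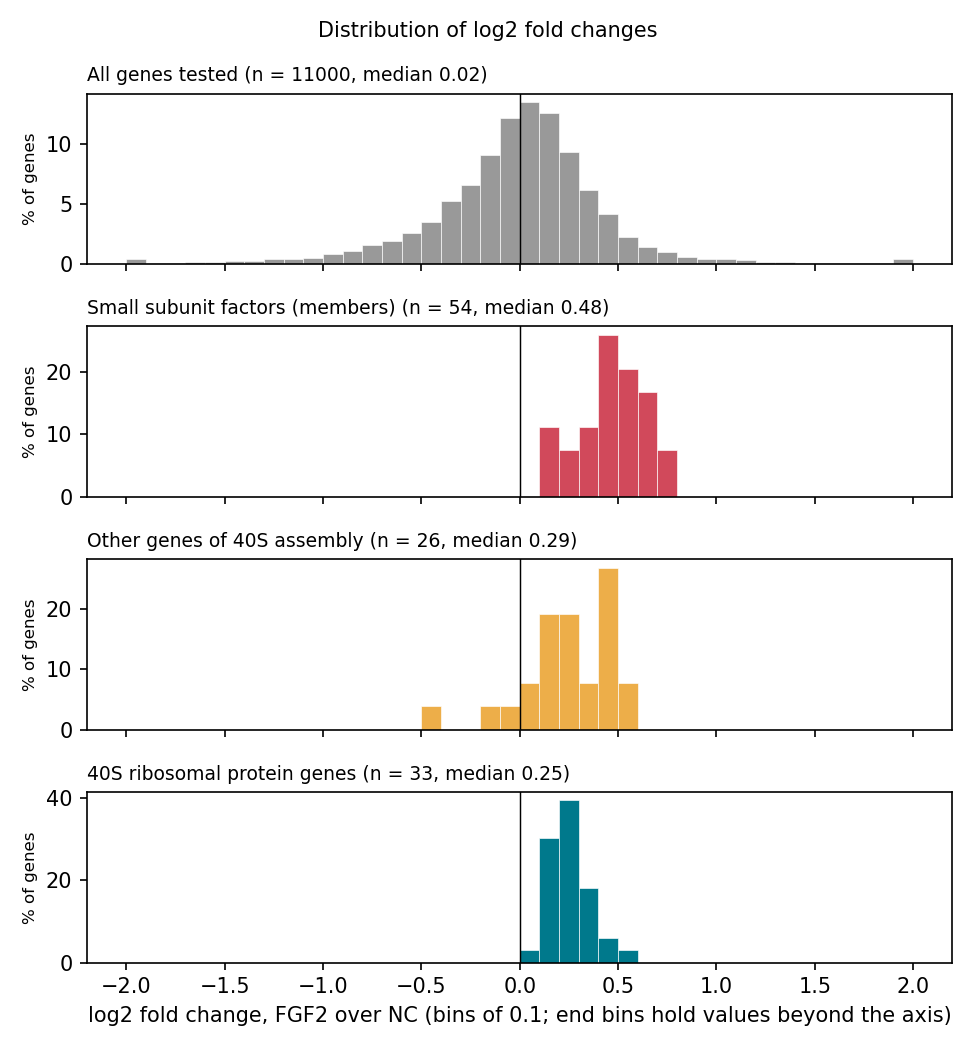
Distribution of log2 fold changes (bins of 0.1, as a percent of the genes in each list) for all genes tested, the 54 factors, 26 other genes of 40S assembly and 33 ribosomal protein genes of the 40S subunit. The factors lie between 0.11 and 0.75, above the median of 0.02 of all genes.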

How the data were processed

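RNA was sequenced from 4 libraries of cells labelled AGS, 2 labelled FGF2 and 2 labelled NC. HISAT2, HTSeq 0.13.5 and GRCh38 are named in the submitters' processing notes. The authors deposited raw read counts per gene, with no normalization, and FPKM values, per the file headers, which divide those counts by exon length and by the library's sum. The deposited identifiers are all in GENCODE v29, and implied lengths equalled its merged exon lengths for 99.5% of 11923 genes, so its coordinates and overlaps are given. The libraries of a group were checked against each other and counted as 1 sample. Counts were scaled by TMM in edgeR 4.0.16 over genes kept by filterByExpr, and fold changes are log2 ratios of scaled counts with 0.5 added. Intervals are Clopper-Pearson (scipy 1.17.1). Depth limits factors of few counts, and counts are given beside DDX47, PWP2 and IMP3. The call rule was run on simulated counts drawn as 4 independent libraries, which cannot show how it performs with 1 sample per group. Alternatives used total counts, DESeq2 1.42.0 size factors, other bounds, single libraries, log2(FPKM + 1) and edgeR's quasi-likelihood test on the read sets. Every factor is named in its role group, and the highest and lowest of each group are given by library. The members and lists were chosen with earlier results of these data known. Protein length was not analysed here.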

Additional observations from a re-analysis of the deposited data

How the results depend on the processing

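All 54 log2 fold changes were above 0 under each alternative but 1 (53 with library 2 less library 1 alone), and 0 factors were called lower under any. Of the 11000 genes tested, 5821 were above 0 with TMM scaling and 4606 with total counts. The count of 40 higher was 36 with scaling to total counts (without HEATR1, NOL11, DHX37 and LTV1). The share of all genes tested then became 8.47% higher and 17.6% lower. The count was 45 at a 1.1-fold bound, which called 21.4% of the genes tested higher and 20.5% lower. At a 1.5-fold bound it was 8, against 3.06% of the genes tested. With 1 deposited library left out it was 42 to 43, while 15.7% to 17.0% of the genes tested were called higher. The median of 0.48 became 0.40 with total counts, 0.37 on the log2(FPKM + 1) scale, which understates low genes, and 0.45 to 0.49 with 1 library left out, where leaving out library 1 of a group cannot move it because fold changes are those of library 2. The edgeR quasi-likelihood test on the disjoint read sets, as if they were replicates, called 46 factors higher. It called 20.7% of the genes tested higher and 17.3% lower. With the replicate number as a block it called 46 factors higher, against 20.0% of the genes tested higher and 16.7% lower. These calls have no meaning for the conditions unless the read sets came from separate cultures, which is not known, and whether the numbers pair the libraries could not be judged. With 1 sample per group, no difference here has a check by replicates.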
